A study of Mus musculus with 14 samples.

Results

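H3K4me2 was mapped by ChIP-seq in leukemia cells with floxed Mll1, treated to delete the gene or with solvent, and the 2 resulting lists of H3K4me2 domains were compared domain by domain. The cells were mouse bone marrow cells transduced with MLL-AF9, of the genotype MLL1 flox/flox, ER-cre+/-. The cells received 4-hydroxytamoxifen (4OHT) at 400 nM for 2 days, which switches on the tamoxifen-dependent Cre recombinase, or its solvent ethanol (EtOH). Both groups were kept in medium with 15% serum and 10 ng/ml interleukin-3, and each ChIP used 15 µl of antibody. These are 2 of the 14 samples of the series, which also holds WDR5 from the same cells, and MLL1, WDR5 and H3K4me2 from MLL-AF9 cells (MAF9) treated with DMSO or with the MLL1-WDR5 inhibitor MM-401 at 20 µM for 2 days. On the 19 autosomes the EtOH list held 98735 domains and the 4OHT list 89250, together 187985 of the 380403 autosomal H3K4me2 domains in the 4 H3K4me2 lists.

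MLL1 is a histone methyltransferase that methylates lysine 4 of histone H3, a task it shares with several related enzymes. Each of these enzymes works in a complex, and WDR5 is a core subunit common to them. H3K4me2 marks promoters and enhancers that are active or primed for activity, and in leukemia driven by an MLL fusion the wild-type MLL1 protein is present beside the fusion. The comparison asks how the H3K4me2 landscape of these cells changed when wild-type Mll1 was deleted.

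Each condition had 1 library, so no test between conditions was possible. Intervals given with shares are 95% Wilson intervals, which cover the counting of domains, treat neighbouring domains as independent and hold no replicate error. The lists give the position of each domain without height or read count, so depth is unknown and a domain absent from a list is one that was not called there. MLL1 was not mapped in the floxed cells, so the deletion could not be checked in these lists. Both groups carried the floxed alleles and the Cre, and no 4OHT-treated sample without floxed alleles was among the lists, so loss of Mll1 and exposure to 4OHT with active Cre cannot be told apart. The labels name the Cre as ER-cre and do not give its promoter.

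The EtOH list stood apart from the other H3K4me2 lists in its widest domains. It held 5021 domains over 4 kb, covering 33.2 Mb, against 3542 such domains covering 22.0 Mb under 4OHT. The MAF9 lists held 2796 domains over 4 kb in DMSO and 2985 under MM-401. Fewer wide domains were therefore called in each of the other 3 lists, the untreated DMSO list included. The median domain was 300 bp wide in EtOH (quartiles 150 and 1125 bp) and 400 bp under 4OHT (quartiles 175 and 1325 bp). In all, H3K4me2 covered 98.9 Mb in EtOH and 89.6 Mb under 4OHT, a net loss of 9.25 Mb. The net loss was seen on each of the 19 autosomes, where the change ranged from -11.5% to -6.35% of the EtOH bases. The autosomes come from the same libraries and are not replicates, so a difference between libraries would reach all of them.

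Overlapping domains of the 2 lists were joined into groups, which gave each EtOH domain 1 of 5 fates. Of the 98735 EtOH domains, 36683 were absent under 4OHT, 30628 matched 1 domain one-to-one, 10099 were split into 2 or more 4OHT domains, 11983 were merged with a neighbour into 1 4OHT domain, and 9342 fell into complex groups with several domains of both lists. A further 18984 domains under 4OHT were new. Absent domains took 6.72 Mb out of the mark and new domains added 3.27 Mb. One-to-one domains fell by 2.32 Mb, split domains fell by 3.22 Mb and complex groups fell by 0.682 Mb. Merged domains were the only matched kind that gained bases, 0.420 Mb.

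Whole-domain loss was limited to narrow domains and stood little above the level between untreated lists. The absent domains were 37.2% (36.9 to 37.5) of the EtOH list, and the new domains were 21.3% (21.0 to 21.5) of the 4OHT list. As a background, 34.3% (34.0 to 34.6) of the same EtOH domains were absent from DMSO, where the cell line and the solvent both differ, and 30.6% of DMSO domains were absent from EtOH. Under MM-401, 30.6% of DMSO domains were absent. Absent domains had a median width of 150 bp, and 89.4% of them were no wider than 300 bp. Widths step by 25 bp, so classes are given from their narrowest to their widest possible domain. By starting width, the absent share was 75.3% up to 100 bp, 69.1% at 125 to 200 bp, 49.6% at 225 to 300 bp, 28.2% at 325 to 500 bp and 6.31% at 525 to 1000 bp. It was 0.158% at 1025 to 2000 bp, or 18 of 11421 domains. Against DMSO the corresponding shares were 69.5%, 61.4%, 44.3%, 28.5%, 8.54% and 0.832%, lower than under 4OHT up to 300 bp and higher over 500 bp. None of the 9982 domains of 2025 to 4000 bp was absent, with a Wilson upper bound of 0.0385%. The same held for the 5021 domains over 4 kb, with an upper bound of 0.0764%. Wide H3K4me2 domains thus stayed marked at least in part in this pair of lists. New domains followed the same order at a lower level, with 56.0% of 4OHT domains up to 100 bp and 1.96% of those of 525 to 1000 bp being new.

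**Figure D1:**
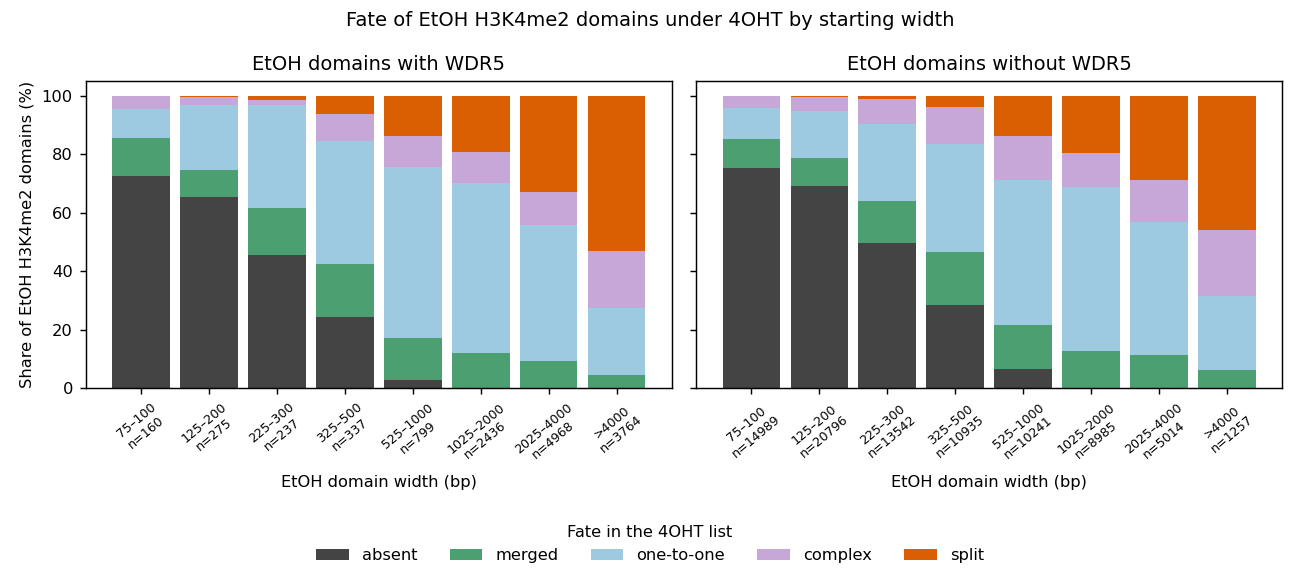
Share of EtOH H3K4me2 domains (vertical axis, percent) with each fate in the 4OHT list, by EtOH domain width (horizontal axis, bp, with the number of domains in each class), for domains with (left) and without (right) an EtOH WDR5 peak. Each bar adds up to all domains of its class. Absent domains fill most of the narrowest classes, and split domains rise to 53.0% (left) and 46.0% (right) over 4000 bp.

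Lost and gained narrow domains lay close to H3K4me2 of the other list, and also to other domains of their own list. Absent EtOH domains were a median of 375 bp from the nearest 4OHT domain, and 58.1% were within 500 bp of one. Their nearest neighbour in the EtOH list itself was closer, at a median of 275 bp, with 69.3% within 500 bp. New 4OHT domains were a median of 250 bp from the nearest EtOH domain, and 67.7% were within 500 bp. Within the 4OHT list itself, the corresponding values for new domains were 300 bp and 63.6%. The DMSO list of MAF9 cells, which received neither agent, was searched for the same positions. It held 31.7% of the absent EtOH domains, 85.8% of the matched ones and 40.1% of the new 4OHT domains. Within each width class up to 1000 bp, absent domains were found in DMSO less often than matched domains and less often than new domains, as at 225 to 300 bp, where the shares were 39.9% (38.8 to 41.1), 71.1% (70.1 to 72.2) and 50.4% (48.7 to 52.1).

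The widest absent EtOH domain was 1375 bp at chr6:124666251-124667625, in mm9 coordinates, the build named in the submitters' processing notes. It held no WDR5 peak, lay 1150 bp from the nearest 4OHT domain and was also absent from DMSO and MM-401. The next, both 1350 bp wide, were at chr3:136370376-136371725 and chr13:104700026-104701375. Unlike the first, both were present in DMSO, which covered 77.8% and 98.1% of them. The widest new 4OHT domain was 1150 bp at chr13:20889726-20890875 and lay 25 bp from an EtOH domain. The other 2 of the widest new domains were 1050 bp each, at chr8:95345926-95346975 and chr11:54609876-54610925, and they lay 16375 bp and 1575 bp from the nearest EtOH domain.

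Splitting was the most common fate of the widest domains. Of the 62052 EtOH domains that had a match, 16.3% (16.0 to 16.6) were split under 4OHT. In the other direction, 5509 of the 70266 matched 4OHT domains, 7.84% (7.64 to 8.04), were split in EtOH. The split share of matched EtOH domains was 2.08-fold that of matched 4OHT domains over all autosomes. This ratio of shares was between 1.37 and 2.57 on single chromosomes. It was above 1 on 19 of 19, all read from the same libraries and so not replicates. By starting width, the split share of all EtOH domains was 3.98% at 325 to 500 bp, 13.8% at 525 to 1000 bp, 19.5% at 1025 to 2000 bp, 30.9% at 2025 to 4000 bp and 51.3% over 4000 bp. For 4OHT domains split in EtOH, the share was 11.3% at 525 to 1000 bp, 12.6% at 1025 to 2000 bp, 12.9% at 2025 to 4000 bp and 11.4% over 4000 bp. The 2 directions were thus close at 525 to 1000 bp and far apart over 4000 bp.

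The splits of wide EtOH domains were also found against an untreated list. The same EtOH domains set against DMSO were split at 36.4% at 2025 to 4000 bp and 56.3% over 4000 bp. These shares were above those under 4OHT. At 525 to 1000 bp and 1025 to 2000 bp the order was the opposite, with 9.28% and 16.2% split against DMSO and 13.8% and 19.5% under 4OHT. Both comparisons share the EtOH list, so they are not independent of each other. Over all widths, 15.2% of matched EtOH domains were split in DMSO and 9.83% of matched DMSO domains in EtOH. In MAF9 cells, DMSO domains over 4000 bp were split at 31.8% under MM-401, and splits and merges balanced, at 11.0% and 10.7% of matched domains. The part of the wide EtOH domains themselves in the splits under 4OHT was not tested.

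**Figure D2:**
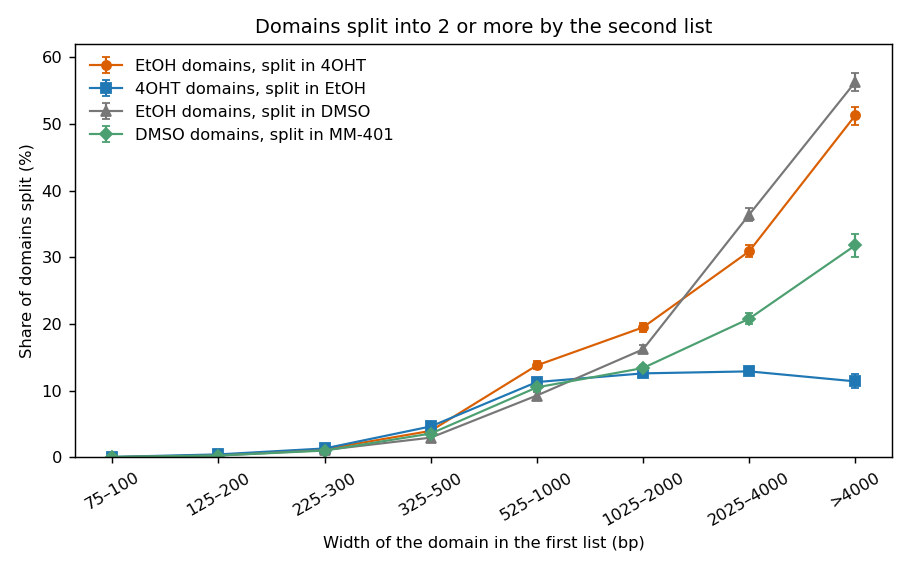
Share of domains of the first list that were split into 2 or more domains by the second list (vertical axis, percent) by their width in the first list (horizontal axis, bp), for 4 ordered pairs of H3K4me2 lists. Points are shares of 1 library each and bars are 95% Wilson intervals; over 4000 bp EtOH domains reach 51.3% under 4OHT and 56.3% against DMSO, and 4OHT domains split in EtOH stay at 11.4%.

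Split domains broke at short gaps and kept most of their bases. The split EtOH domains had a median width of 2350 bp, and 7579 of the 10099, or 75.0%, broke into 2 pieces. Another 1839 broke into 3 pieces and 681 into 4 or more, with a highest number of 11. The 13671 gaps between pieces had a median of 125 bp (quartiles 50 and 200 bp), a maximum of 1950 bp and a sum of 2.06 Mb. In the median split domain the gaps took 6.52% of the domain, and the widest piece held 74.7% of the bases left in the pieces. Gaps of up to 100 bp were 47.2% of all gaps and gaps of up to 500 bp 97.9%. When gaps of up to 500 bp were closed in both lists, the split share of matched EtOH domains fell to 6.31% and that of 4OHT domains to 1.96%. The ratio of the EtOH share to the 4OHT share was then 3.22. Against DMSO the same closing left 8.35% of matched EtOH domains and 2.04% of matched DMSO domains split, a ratio of 4.08. EtOH domains split in DMSO also broke at short gaps, with a median of 150 bp, and 72.0% of them broke into 2 pieces.

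The domain with the most pieces was at chr14:69887226-69908200, 20975 bp wide in EtOH and called as 11 domains under 4OHT. The pieces ranged from 75 to 11175 bp and the gaps from 25 to 225 bp, so that 94.9% of the EtOH domain was still covered. DMSO held 9 domains and MM-401 16 domains in the same span. A second domain with 11 pieces was at chr15:96109101-96125275, with 86.6% of its 16175 bp covered, and one with 9 pieces was at chr16:49852126-49883800, with 94.2% of 31675 bp covered. In the reverse direction, the 4OHT domain at chr1:156102801-156108625, 5825 bp wide, joined 7 EtOH domains. Those at chr1:72547851-72552350 and chr7:29727951-29732025 each joined 6.

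**Figure D3:**
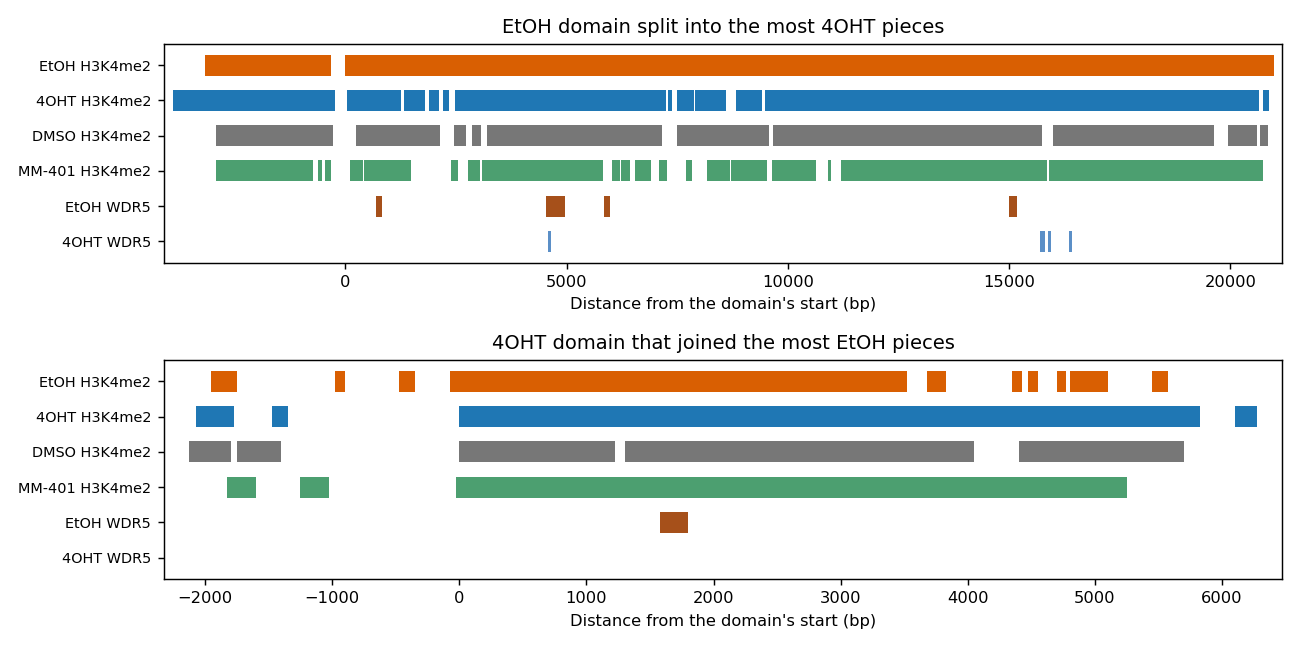
Called domains and peaks (bars) in each list along the EtOH domain split into the most 4OHT pieces (top) and the 4OHT domain that joined the most EtOH pieces (bottom), with distance from the start of that domain in bp on the horizontal axis. The 20975 bp EtOH domain appears as 11 blocks under 4OHT and 9 in DMSO, and the 5825 bp 4OHT domain as 7 blocks in EtOH.

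Domains matched one-to-one became narrower more often than wider. Of the 30628 pairs, 59.0% (58.5 to 59.6) were narrower under 4OHT and 36.0% were wider, with a median change of -50 bp (quartiles -225 and 75 bp). The median width of these domains was 700 bp in EtOH and 650 bp under 4OHT. The median change was below 0 on each of the 19 autosomes, which are not replicates, and the narrower share ranged from 54.0% to 64.1%. Both edges moved inwards in 30.1% of pairs, both moved outwards in 13.8%, and 1 edge moved in while the other moved out in 42.6%. Edges moved little, as 54.2% of them lay within 100 bp of their EtOH position and 95% within 375 bp. Both the left and the right edge had a median shift of 25 bp inwards, which is 1 step of the 25 bp grid on which the domains were called.

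Shrinkage grew with starting width. The median change was +125 bp for EtOH domains up to 100 bp, +50 bp at 125 to 200 bp, -25 bp at 225 to 300 bp, -100 bp at 325 to 500 bp, -125 bp at 525 to 1000 bp, -100 bp at 1025 to 2000 bp, -200 bp at 2025 to 4000 bp and -250 bp over 4000 bp. The narrowest domains widened and the widest narrowed. Classed by their 4OHT width instead, pairs up to 100 bp had a median change of -150 bp and those over 4000 bp of -200 bp, so the sign at narrow widths depended on the list that set the class, and the sign at wide widths did not. Classed by the mean of both widths, pairs up to 200 bp had a median change of 0 bp, those over 500 and up to 1000 bp -50 bp, those over 2000 and up to 4000 bp -175 bp and those over 4000 bp -225 bp. The narrower share was 48.2% in pairs over 100 and up to 200 bp and 78.5% over 4000 bp. Relative to the starting width the shrinkage of wide domains was small, since the median domain over 4000 bp in EtOH kept 95.6% of its width. Against DMSO, EtOH domains with a mean width over 2000 and up to 4000 bp and over 4000 bp were narrower in 75.1% and 80.2% of pairs, and under 4OHT in 72.6% and 78.5%. Over 500 and up to 1000 bp the directions differed, with 39.0% narrower in DMSO and 56.6% narrower under 4OHT.

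**Figure D4:**
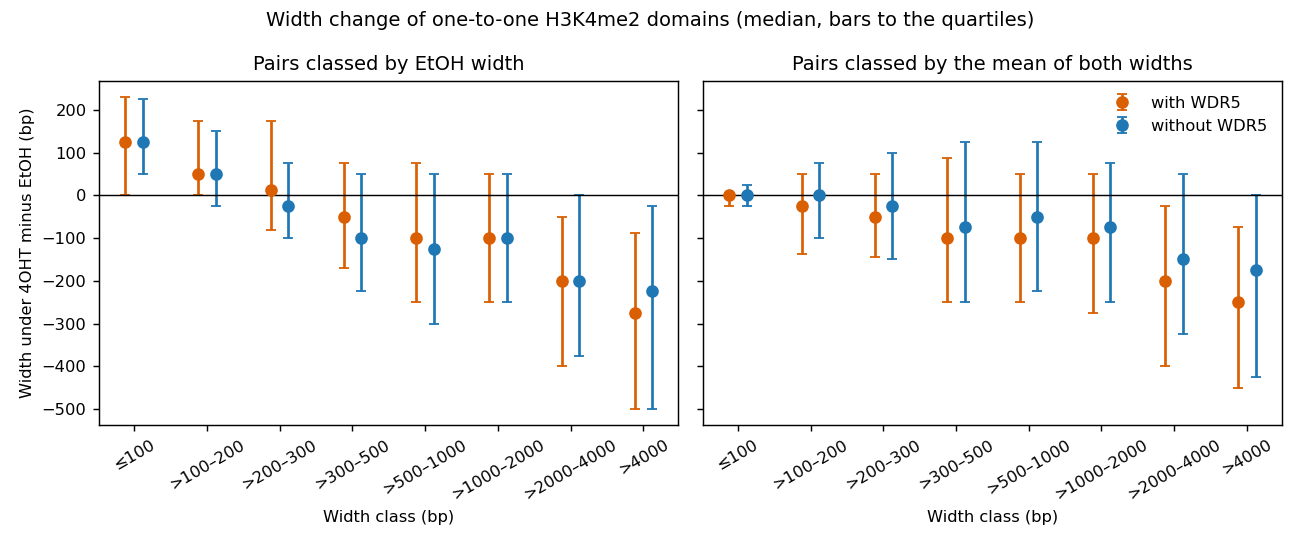
Width under 4OHT minus width in EtOH (vertical axis, bp) for one-to-one H3K4me2 domains, by EtOH width (left) or by the mean of both widths (right), with and without an EtOH WDR5 peak. Points are medians over domains and bars reach the quartiles; over 4000 bp the medians are -275 and -225 bp on the left and -250 and -175 bp on the right.

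The largest fall among one-to-one domains was at chr2:157968251-157972700, from 4450 to 1075 bp, through a left edge that moved in by 3075 bp. DMSO covered 97.8% of this domain. The next largest were at chr5:141089351-141095200, from 5850 to 3625 bp, and at chr2:169976601-169987900, from 11300 to 9325 bp. The largest rises started from domains of 225 to 725 bp. They were at chr7:29792701-29792925, from 225 to 1450 bp, chr8:75285676-75286400, from 725 to 1850 bp, and chr15:5901076-5901300, from 225 to 1350 bp. All 3 domains that rose most were covered in full by DMSO domains in the MAF9 cells.

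Counted in bases, edges lost more than whole domains or inner gaps. Of the EtOH bases, 18.9 Mb, or 19.1%, were not covered under 4OHT. Edges of matched domains made up 9.15 Mb of these (48.5%), whole absent domains 6.72 Mb (35.6%) and inner gaps 3.01 Mb (15.9%). The 55888 lost edges and the 19986 inner gaps each had a median length of 125 bp. In the other direction, 9.62 Mb of the 4OHT bases, or 10.7%, were not in EtOH, with 4.89 Mb at edges, 3.27 Mb in new domains and 1.46 Mb in filled gaps. Each of the 3 kinds was larger on the side of loss. As a background, 20.5 Mb (20.8%) of the EtOH bases were not covered in DMSO, and 17.8 Mb (18.6%) of the DMSO bases were not covered under MM-401. Edges were the largest part there too, at 49.2% and 51.9% of the uncovered bases, with whole domains at 31.8% and 36.3%. For DMSO bases not covered in EtOH, whole domains made up 44.3% and edges 43.8%. The order of the parts was therefore not particular to the 4OHT list.

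WDR5 peaks marked the wide domains. An EtOH WDR5 peak overlapped 12976 EtOH domains, which had a median width of 2825 bp against 250 bp for the 85759 domains without WDR5. Domains with WDR5 were absent at 3.93% (3.61 to 4.28) and those without at 42.2% (41.8 to 42.5). Most of this gap went with width. Within a class, domains with and without WDR5 were absent at 72.5% and 75.3% up to 100 bp, at 65.5% and 69.1% at 125 to 200 bp and at 24.3% and 28.3% at 325 to 500 bp, each with overlapping intervals. A separation remained at 525 to 1000 bp, where the absent share was 2.75% (1.83 to 4.13) with WDR5 and 6.59% (6.13 to 7.09) without it. Domains with WDR5 were also wider within this class, with medians of 775 and 700 bp. The class was separated against DMSO too, at 5.13% (3.80 to 6.89) with and 8.81% (8.27 to 9.37) without WDR5. With shares weighted to the widths of the domains with WDR5, the difference over all widths was 0.545 percentage points. The widest absent domain with WDR5 was 1075 bp at chr10:80992876-80993950, 3725 bp from the nearest 4OHT domain.

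Wide domains with WDR5 were split more often than wide domains without it, under 4OHT and against DMSO alike. The shares differed by less than their counting error at 525 to 1000 bp (13.9% and 13.8%) and at 1025 to 2000 bp (19.1% and 19.6%). At 325 to 500 bp they were 6.23% with and 3.91% without WDR5, a difference of 2.32 percentage points (0.164 to 5.44). They were 33.0% (31.7 to 34.3) with and 28.7% (27.5 to 30.0) without WDR5 at 2025 to 4000 bp, a difference of 4.27 percentage points (2.46 to 6.08). Over 4000 bp they were 53.0% (51.4 to 54.6) and 46.0% (43.2 to 48.7), a difference of 7.05 points (3.85 to 10.2). Domains with WDR5 were also wider in each of these wide classes. Their medians were 2900 against 2600 bp at 2025 to 4000 bp, and 5725 against 5050 bp in the open class over 4000 bp. The split share over 4000 bp was 46.0% with no WDR5 peak, 50.4% with 1, 51.8% with 2 and 58.9% with 3 or more, and domains with 3 or more had a median width of 7100 bp. Against DMSO, EtOH domains with and without WDR5 were split at 40.8% (39.4 to 42.1) and 32.1% (30.9 to 33.5) at 2025 to 4000 bp, and at 57.7% (56.1 to 59.2) and 52.2% (49.4 to 54.9) over 4000 bp. The excess in wide domains with WDR5 was therefore not particular to the 4OHT list. In MAF9 cells the order was the opposite. DMSO domains over 4000 bp were split under MM-401 at 28.0% with and 36.3% without a DMSO WDR5 peak.

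One-to-one domains with WDR5 narrowed more often as well, again under 4OHT and against DMSO alike. The narrower share was 72.1% of 5360 pairs with WDR5 and 56.3% of 25268 without, with median changes of -150 and -50 bp. Classed by mean width, the shares were 65.6% (61.1 to 69.8) and 55.7% (54.2 to 57.1) over 500 and up to 1000 bp, and 77.2% (75.5 to 78.9) and 67.7% (65.7 to 69.6) over 2000 and up to 4000 bp. Over 1000 and up to 2000 bp they were 64.8% (62.4 to 67.2) and 61.5% (60.1 to 62.8), and over 4000 bp 80.3% (77.4 to 82.9) and 73.8% (68.4 to 78.5), each with intervals that overlapped. Against DMSO, 72.9% of pairs with WDR5 and 46.0% of those without were narrower, with 62.9% (58.7 to 66.9) and 36.9% (35.7 to 38.2) at a mean width over 500 and up to 1000 bp and 78.8% (76.9 to 80.5) and 71.6% (69.6 to 73.5) over 2000 and up to 4000 bp. The widest one-to-one domain with WDR5, 27500 bp at chr6:52159126-52186625, narrowed to 26375 bp, with 475 bp lost at its left and 650 bp at its right edge. It held 8 WDR5 peaks in EtOH and 17 under 4OHT, so it stayed 1 unbroken domain while WDR5 peaks were still called in it.

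In bases, domains with WDR5 lost a smaller part than those without and gained little. They covered 45.2 Mb in EtOH, of which 4.30 Mb (9.52%) were not covered under 4OHT, with 2.75 Mb at edges, 1.44 Mb in inner gaps and 0.117 Mb in absent domains. The domains without WDR5 covered 53.7 Mb and lost 14.6 Mb (27.1%). Of the bases of 4OHT domains that overlapped an EtOH WDR5 peak, 0.995 Mb of 37.2 Mb (2.68%) were not in EtOH, against 8.62 Mb of 52.5 Mb (16.4%) of those that did not. The WDR5 peaks that chose the domains in both directions came from the EtOH library. The same EtOH domains with WDR5 had 13.4% of their bases uncovered in DMSO, and those without had 26.9%, so the contrast was also present against that untreated list. These shares of bases were not compared at equal width, and the median widths were 2825 bp with and 250 bp without WDR5.

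WDR5 peaks were denser in the inner gaps than in the parts of the domains that stayed marked. In EtOH domains over 2000 bp with or without WDR5, inner gaps covered 1.95 Mb and held 741 WDR5 peak centres, or 3.81 per 10 kb, against 13034 centres in 55.9 Mb of kept parts, or 2.33 per 10 kb. Inner gaps thus held 5.38% (5.01 to 5.77) of the centres on 3.37% of these bases. The density in lost edges was lower, at 1.42 per 10 kb against 3.52 in kept parts and 5.68 in inner gaps when domains over 2000 bp with WDR5 alone were counted. Over all places in the domains, the excess lay in WDR5 peaks that were called in both conditions. EtOH WDR5 peaks also called under 4OHT had 2.23 centres per 10 kb in inner gaps and 0.760 in kept parts, while those not called under 4OHT had 1.57 in both. Of the EtOH WDR5 peaks centred in inner gaps, 58.7% (55.1 to 62.2) were also called under 4OHT, and of those in kept parts 32.6% (31.8 to 33.4). Most gaps held no WDR5 peak, as 9.41% of the inner gaps in wide domains with WDR5 contained a centre.

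WDR5 peaks lay toward the middle of domains and gaps toward the edges, so the densities were also compared at matched places. Kept parts at the same relative distance from the edge as the gaps held 1.97 centres per 10 kb, fewer than kept parts as a whole, against 3.81 in the gaps. In the innermost of 5 equal steps from edge to centre, the gaps held 7.69 and the kept parts 3.37, and in the outermost step the order was reversed, with 0.582 and 0.901. At matched places, EtOH WDR5 peaks also called under 4OHT had 2.23 centres per 10 kb in gaps and 0.619 in kept parts. Those not called under 4OHT had 1.57 and 1.35, so gaps were denser for them too, by less. The WDR5 list also bore on the excess. With 4OHT WDR5 peaks, inner gaps held 3.69 and kept parts 2.52 centres per 10 kb. With DMSO WDR5 peaks from MAF9 cells they held 1.81 and 1.65, and the gaps had 3.68% (3.32 to 4.08) of the centres on 3.37% of the bases, so with that list no excess beyond counting error was measured over all places. At matched places the kept parts held 1.34 of these centres per 10 kb. When the same wide EtOH domains with WDR5 were set against DMSO in place of 4OHT, their inner gaps held 8.16 EtOH WDR5 centres per 10 kb and their kept parts 3.31. In MAF9 cells the order was reversed, with 0.536 DMSO WDR5 centres per 10 kb in the gaps that opened under MM-401 in wide domains with WDR5 and 3.42 in kept parts. Over 2000 bp, an excess of WDR5 in the gaps was therefore measured for EtOH domains against either list and not for DMSO domains against MM-401. In domains of 2000 bp or less with WDR5 the gaps were the denser part in both cell lines, at 13.0 and 7.85 centres per 10 kb for EtOH against 4OHT and 12.6 and 7.39 for DMSO against MM-401.

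**Figure D5:**
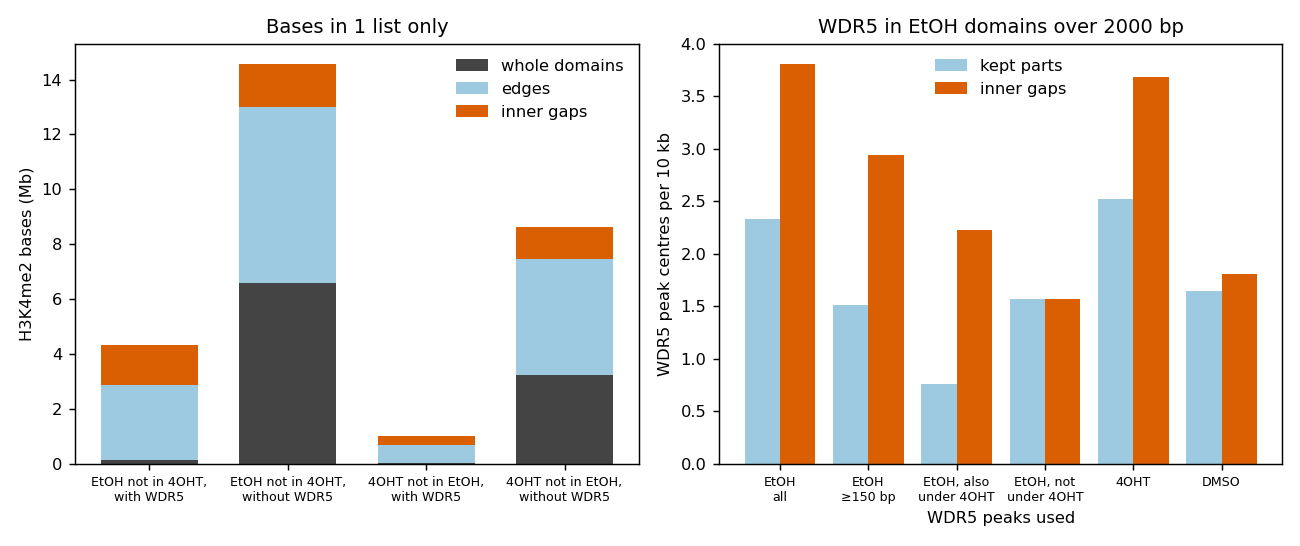
Left, H3K4me2 bases (vertical axis, Mb) called in 1 list and not the other, as whole domains, edges and inner gaps, for EtOH and 4OHT domains with and without an EtOH WDR5 peak. Right, WDR5 peak centres per 10 kb (vertical axis) in kept parts and inner gaps of EtOH domains over 2000 bp for 6 choices of WDR5 peaks (horizontal axis); for EtOH peaks also called under 4OHT the values are 0.760 and 2.23.

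WDR5 peaks of EtOH domains were called again under 4OHT in a minority of cases, and more often in wide domains. The EtOH list held 33974 autosomal WDR5 peaks and the 4OHT list 40439. Of the 18826 overlaps of an EtOH domain and an EtOH WDR5 peak, 31.6% (30.9 to 32.3) had a peak that was also called under 4OHT. The share over all 33974 EtOH WDR5 peaks is not given here. Whether peaks in H3K4me2 domains differ from the rest in this respect was not tested. Counted per domain, 38.3% of the domains with WDR5 had at least 1 such peak, a share that also rises with the number of peaks in a domain. In the 9131 domains with a single WDR5 peak the share was 28.6% (27.7 to 29.5), and it went from 12.5% (8.24 to 18.5) up to 100 bp to 34.6% (32.4 to 37.0) over 4000 bp. Among single-peak domains of the same width class, absent domains mostly had lower shares than one-to-one domains. The domains were few, and the intervals overlapped in each class given here. Up to 100 bp the shares were 10.3% (6.02 to 17.2) of absent and 31.2% (14.2 to 55.6) of 16 one-to-one domains. They were 15.0% and 14.8% at 125 to 200 bp, and 7.48% (3.84 to 14.1) and 20.2% (13.0 to 30.0) at 225 to 300 bp. At 325 to 500 bp they were 18.8% and 20.3%, and at 525 to 1000 bp 4.55% (0.807 to 21.8) and 24.4% (20.6 to 28.6). Split domains with a single peak had 35.6% (32.9 to 38.4) and one-to-one domains 31.4% (29.2 to 33.7) at 2025 to 4000 bp, and 38.6% (35.4 to 41.9) and 32.0% (27.6 to 36.7) over 4000 bp, with intervals that overlapped in both classes. Counted over all peaks, the intervals were apart over 4000 bp, at 37.6% (36.2 to 39.1) for split and 33.0% (30.7 to 35.3) for one-to-one domains.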

How the data were processed

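The authors deposited each list as chromosome, start and end of called peaks, made from 1 library at a time, with no score, fold, p-value or read count. Peak names and a 25 bp grid identify HPeak as the caller, and both the start and the end, counted from 1, were taken as part of a peak. The submitters' processing notes name Bowtie and mm9; the HPeak version and threshold are not given in the sources used here. Inputs and the MLL1 and MM-401 WDR5 lists were not used here. Gene names and sequences were not used here, because the gene tables at hand are of GRCm38.

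Autosomal domains were compared with Python 3.11.15, numpy 2.4.6 and scipy 1.17.1, and figures drawn with matplotlib 3.10.9. X and Y, which held 2163 EtOH and 2055 4OHT domains, entered as an alternative. Domains sharing at least 1 bp were joined into groups, and a fate follows from the number of domains of each list in a group. A domain with WDR5 overlapped an EtOH WDR5 peak, or a DMSO WDR5 peak for DMSO domains. Width classes are of the first list named. The code was tested on simulated data made from the EtOH H3K4me2 domains, and 100% of 111669 known fates were recovered.

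Domains named by position are the 3 widest absent and new, the 3 with most pieces in each direction, the 3 largest falls and rises, the widest absent and the widest one-to-one domain with WDR5, without chromosome 18. Members, lists and classes were chosen with earlier results of these data known. The WDR5 peaks by place, the matching of places, the counts per WDR5 peak, further gap sizes and the mean width of a pair were chosen after seeing the data. Alternatives changed the overlap, closed gaps up to 500 bp, kept wide domains, equalised list lengths or changed the WDR5 peaks. Depth per sample is unknown, so no precision from reads can be given.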

Additional observations from a re-analysis of the deposited data

Results flagged for a closer look

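Changes of EtOH domains under 4OHT and of DMSO domains under MM-401 were set side by side in 16 measures, and 7 of these went in opposite directions in the 2 cell lines. With 1 library per condition these differences were not tested, and the agent, the cell line and the WDR5 list differ together. The DMSO WDR5 list held 14289 autosomal peaks and the EtOH WDR5 list 33974.

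Among domains with WDR5, the split share exceeded the merged share by 23.5 percentage points for EtOH domains under 4OHT, whereas for DMSO domains under MM-401 the difference was -11.6 points. Over all domains the difference was -1.91 and -8.87 points, and without WDR5 -5.75 and -8.53 points, in the same direction in both cell lines. The merged share here counts every first-list domain that was joined, whereas the split share in the other direction given above counts each merge once. Under 4OHT, 11983 EtOH domains were joined in 5509 merges, so a negative difference does not mean that merges outnumbered splits. The split share of domains with WDR5 minus that of domains without was 4.27 points at 2025 to 4000 bp and 7.05 points over 4000 bp under 4OHT, and -6.16 and -8.31 points under MM-401. In domains over 2000 bp with WDR5, the density of WDR5 centres in inner gaps minus that in kept parts was 2.16 per 10 kb under 4OHT and -2.88 per 10 kb under MM-401.

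One-to-one domains with WDR5 of 325 to 500 bp had a median width change of -50 bp under 4OHT and +50 bp under MM-401. At 525 to 1000 bp and at 1025 to 2000 bp the medians were -100 bp under 4OHT and +25 bp under MM-401 in each class. Over 2000 bp the medians were below 0 in both cell lines.

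The same EtOH domains set against DMSO, without 4OHT, went the way of the 4OHT comparison in 6 of these 7 measures. Both comparisons start from the EtOH list. Against DMSO, domains with WDR5 were split at 36.7% and merged at 8.78%. Split shares with and without WDR5 were 40.8% and 32.1% at 2025 to 4000 bp and 57.7% and 52.2% over 4000 bp. Inner gaps over 2000 bp held 8.16 WDR5 centres per 10 kb and kept parts 3.31. The median width changes were +25 bp at 325 to 500 bp, the way of MM-401, and -75 and -150 bp in the next 2 classes.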

How the results depend on the processing

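None of the differences, width changes and net losses changed sign under any alternative that was run. Shares cannot change sign, so for them this gives no check. Of 73 alternative values, 16 were counted as unchanged, mostly because they lay within the 95% interval of the reported value or equalled it. Differences in WDR5 density have no interval, and those of 1.43 and 1.47 per 10 kb against a reported 1.47 were counted as unchanged. The shares themselves moved with the definition of a match. With 50% of the peak covered, 46.8% of EtOH and 30.2% of 4OHT domains were absent from the other list, 18.1% and 8.08% of matched domains were split in 4OHT and in EtOH, 60.3% of pairs narrowed, the absent share without minus with WDR5 was 47.0 points, and the split share with minus without WDR5 was 21.1 points. With gaps up to 500 bp closed these values were 24.4%, 15.3%, 6.31%, 1.96%, 63.2%, 29.2 and 10.5 points, with a median change of -150 bp and a net loss of 10.8 Mb. With the widest 50% of each list they were 21.0%, 6.17%, 11.7%, 5.80%, 61.9%, 24.0 and 17.2 points, -100 bp and 9.60 Mb. With lists of equal length they were 33.1%, 22.4%, 17.3%, 6.97% and 59.9%, 34.6 points (absent) and 8.51 Mb. Without peaks under 200 bp they were 25.6%, 14.1%, 15.3%, 6.81%, 60.7%, 28.0 and 19.2 points, and 8.37 Mb. With X and Y the net loss was 9.59 Mb.

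WDR5 peaks of at least 150 bp gave a split difference of 23.6 points. WDR5 within 1 kb gave 26.1 points (absent) and 16.0 points (split). At the widths of domains with WDR5 these were 0.545 and 3.76 points, so most of both differences went with width. With changes up to 100 bp counted as equal, 40.9% of pairs narrowed. With gaps up to 100, 1000 and 2000 bp closed, splits under 4OHT were 14.8%, 5.01% and 4.75% of matched EtOH domains and splits in EtOH 6.74%, 1.09% and 0.954% of matched 4OHT domains. Where a value moved, the cause was not tested beyond the change the alternative itself makes. No paired analysis was possible because each condition had 1 library. Depth is unknown and limits every absent call.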
